A study of Homo sapiens with 9 samples.

Results

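Indisulam was compared with DMSO in MDA-MB-231, an established line of triple-negative human breast cancer cells with a mesenchymal expression profile. The comparison rests on 6 of the 9 polyadenylated RNA libraries of the study: 3 from cells given DMSO, labelled 12 h, and 3 from cells given 3.3 µM indisulam for 12 h. The other 3 libraries were of cells treated for 6 h with the SF3B1 inhibitor pladienolide B at 10 nM. They entered only the filter on low values, the estimate of the spread and, for some genes, values set side by side. Of 46846 features in the deposited table, 16846 had a mean normalised count across all 9 libraries of at least 10 and were tested, and 14288 of these carried a gene symbol. Whether the libraries of a group are separate cultures is not stated in the labels. The p-values thus reflect the spread among these libraries alone, which may be technical, and they describe 1 cell line at 1 dose and 1 time.

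Introns are removed by the spliceosome, in which the U1 snRNP binds the start of an intron and the U2 snRNP its branch site. RBM39 is an RNA-binding protein with arginine and serine repeats, related to the U2 auxiliary factor U2AF2, that helps the spliceosome to find exons. Indisulam is an aryl sulfonamide that acts as a molecular glue: it joins RBM39 to DCAF15, the substrate receptor of a CUL4 ubiquitin ligase, and RBM39 protein is then degraded by the proteasome. The libraries measure RNA, and no protein was measured. Values below are the deposited normalised counts, which are read counts divided by the authors' size factor of each library. The ± beside a log2 fold change is its standard error. A gene is said to have risen or fallen where limma's Benjamini-Hochberg adjusted p, over all 16846 features, was under 0.05.

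The 6 libraries held 59312100 to 74627193 reads. The summed level of 20 markers of this line was 560581 to 615569 in DMSO and 563315 to 613849 with indisulam. Most of the 20 are mesenchymal genes, led by VIM, AXL and CAV1, but the keratin gene KRT18 is among them. Of the 19 tested, 2 rose and 2 fell (10.5% each, against 14.5% and 12.4% of all features). CD44 (log2 fold change 0.22) and SNAI2 (0.24) rose, and AXL (−0.48) and KRT18 (−0.17) fell. Of the 20, TWIST1 alone was at 0 in all 6 libraries. The summed level of 14 luminal and HER2 markers was 29393 to 34044 in DMSO and 30135 to 32670 with indisulam, and the hormone receptor genes ESR1 and PGR were at values of 2.04 or below in each library. The 14 markers of leukocytes, endothelium, red cells and liver summed to 639 to 688 in DMSO and 475 to 547 with indisulam, with 3 of them, the red cell gene HBB among these, at 0 in all 6. Most of that sum came from CSF1R and KDR, and CSF1R, a receptor tyrosine kinase of macrophages, fell (values of 287, 252 and 267 in DMSO and 139, 102 and 145 with indisulam; log2 fold change −1.07 ± 0.17, limma adjusted p = 0.000601); it was named after its values were seen.

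The transcript of RBM39 itself, whose protein the drug removes, was measured first (hg38 chromosome 20, 35701347 to 35742260). Its values were 14584, 15236 and 15288 in DMSO and 38719, 37310 and 36910 with indisulam (log2 fold change 1.32 ± 0.05, limma adjusted p = 1.86e-08). Every indisulam library stood above every DMSO library, by about the same factor. RBM23, the closest relative of RBM39 and also bound by DCAF15 with the drug, gave 3504, 3665 and 3367 in DMSO and 4903, 4806 and 4916 with indisulam (log2 fold change 0.47 ± 0.06, limma adjusted p = 0.000115), again without overlap; it shares coordinates with the higher feature DAD1, from which its reads cannot be told apart, since the strand setting of the counting is not given in the sources used here. DCAF15 gave 2976, 3178 and 3173 in DMSO and 3162, 3240 and 3134 with indisulam, values that overlapped (log2 fold change 0.03 ± 0.07, limma adjusted p = 0.786). Among the genes of CUL4 ligases and their DCAF receptors, 4 of 25 rose (16%) and 4 fell (16%; median 0.08). Over all features 14.5% rose and 12.4% fell, and the counts of the list were within 2 genes of what these shares would give, so they are no result about the list. DCAF6 fell most, with 5055, 5411 and 5077 in DMSO and 2815, 3121 and 3111 with indisulam (log2 fold change −0.78 ± 0.06, limma adjusted p = 4.02e-06), and the receptors DCAF10 (−0.56) and DDB2 (−0.46) fell as well. DCAF1 (0.42), DCAF4 (0.38) and CRBN (0.30), the receptor used by thalidomide, rose. DCAF1 shares coordinates with the higher feature RBM15B. The number of this list that rose was 2 on leaving out DMSO replicate 3 or indisulam replicate 1.

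Over all features, 2437 rose with indisulam (14.5% of those tested) and 2095 fell (12.4%). A change of at least 2-fold was called upward for 366 features (2.17%) and downward for 248 (1.47%), so most of the changes were small. All 3 indisulam values stood above all 3 DMSO values in 27.4% of features and below them in 21.0%. The share of higher genes among those called depended on the scaling: it was 53.8% with the deposited size factors, 42.9% with TMM scaling (1832 rose and 2443 fell) and 40.3% with the same total per library (1714 and 2544). Without DMSO replicate 2, 1620 features rose, and without indisulam replicate 3, 1565. The pladienolide B libraries in the fit mattered too: with the 6 libraries only, 3497 features rose and 2747 fell. The median log2 fold change over all features was 0.05. Of the features that fell, 1964 carried a symbol and 131 did not. Among those that rose, 416 had no symbol, and they held 229 of the 366 rises of at least 2-fold.

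**Figure D1:**
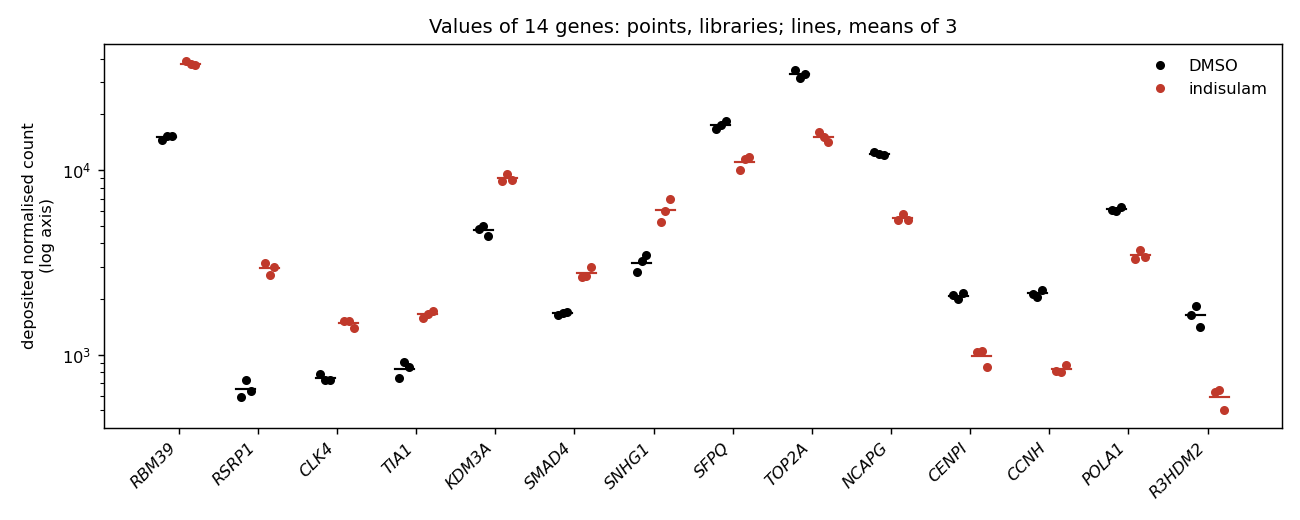
Deposited normalised count (log axis) of 14 genes in each of the 3 DMSO libraries (black) and the 3 indisulam libraries (red), with a line at each mean. The genes from RBM39 to SNHG1 stand higher with indisulam, those from SFPQ to R3HDM2 lower, and in none of the 14 do the groups overlap.

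Genes with few exons rose more often than they fell, and genes with many exons fell more often than they rose. The 12512 protein-coding features were classed by the largest number of exons in any of their GENCODE transcripts. Of 226 genes with 1 exon, 61 rose and 3 fell. With 3 to 4 exons, 251 of 1389 rose and 94 fell. At 9 to 12 exons the directions were about equal, with 347 of 2547 rising and 358 falling. Of 1554 genes with 21 to 40 exons, 140 rose and 412 fell, and of 249 with 41 or more, 7 rose and 76 fell. The median log2 fold change went down from class to class, from 0.19 with 1 exon over 0.11 with 3 to 4, 0.02 with 9 to 12 and −0.09 with 21 to 40 to −0.15 with 41 or more. The median number of exons was 8 among genes that rose, 14 among those that fell and 9 among those not called.

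The order of the exon classes was the same in each indisulam library. For genes with 1 to 4 exons, the median of log2(value + 1) against the DMSO mean was 0.12, 0.11 and 0.11 in the 3 indisulam libraries, where the DMSO libraries lay at 0.01, 0.01 and −0.02. For genes with over 20 exons it was −0.10, −0.09 and −0.13 in the indisulam libraries, against −0.00, −0.01 and 0.01 in DMSO. Genes with many exons are also longer, and the classes were compared again after the genes had been divided into 3 equal parts by each of 3 other properties. Among genes in the lowest part by genomic span, 5.27% of those with 1 to 4 exons fell and 39.3% of the 84 with over 20 exons did. In the highest part the shares were 7.52% and 23.7%. In the lowest part by exonic length 30.8% of the 26 genes with over 20 exons fell, against 5.18% with 1 to 4, and in the highest part the shares were 25.8% and 2.86%. Among genes in the highest part by mean level 31.6% of those with over 20 exons fell and 4.34% with 1 to 4 did. In the lowest part by mean level the contrast was smaller, with 17.7% and 5.18% falling, and only 7.40% of genes with 1 to 4 exons rose there. With the same total per library, 13.5% of genes with 1 to 4 exons rose and 7.21% fell, and 4.60% of those with over 20 rose and 30.8% fell. Over all genes with 1 to 4 exons the share that rose was 19.5%, and it was 12.5% on leaving out DMSO replicate 3 and 12.9% on leaving out indisulam replicate 3. Genes share exon number with length and function and are not replicates, so these shares describe the gene classes and carry no p. With pladienolide B, which shares the DMSO libraries, the medians were 0.83 with 1 exon, 0.10 with 5 to 8, −0.38 with 21 to 40 and −0.13 with 41 or more.

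**Figure D2:**
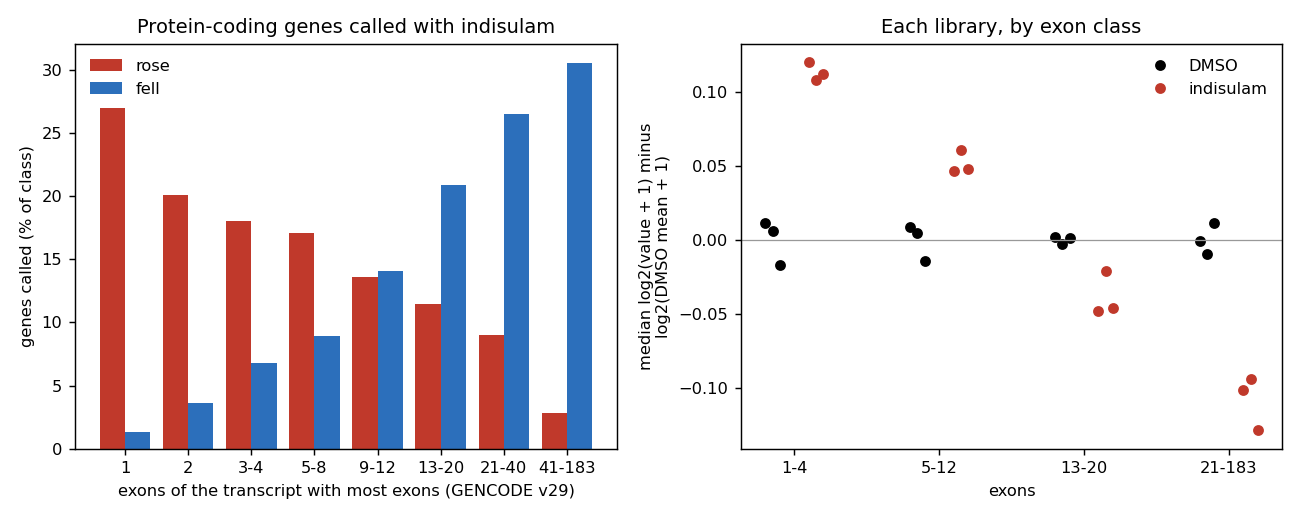
Left, share of protein-coding genes that rose (red) or fell (blue) with indisulam in 8 classes of exon number. Right, median of log2(value + 1) minus that of the DMSO mean in each library, for 4 classes. The share that rose went down from 27.0% to 2.81% and the share that fell went up from 1.33% to 30.5%. In the right panel the indisulam points (red) lie above all DMSO points (black) at 1 to 4 exons and below them at over 20.

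Features inside introns rose more often than they fell. The table holds features that matched no GENCODE gene. Of these, 2812 with a value above 0 overlapped no GENCODE exon and lay within the span of a protein-coding gene. Their median width among those tested was 2113 bases. Of 719 tested, 143 rose (19.9%, against 14.5% of all features), 103 of them at least 2-fold, and 12 fell (1.67%, against 12.4%), with a median of 0.38. Of the 719, 166 had a DMSO mean under 10 and passed the filter on low values through the treated libraries: 155 of them had a mean of at least 10 with pladienolide B and 79 with indisulam. The count was therefore repeated on the 553 with a DMSO mean of at least 10, of which 121 rose (21.9%) and 12 fell (2.17%; median 0.33). Without indisulam replicate 1, 88 of the 719 rose. These features took 0.102%, 0.113% and 0.112% of all normalised counts in the DMSO libraries and 0.139%, 0.127% and 0.127% in the indisulam libraries, without overlap (exact two-sided permutation p = 0.1, the smallest that 3 against 3 can give). Another 286 tested features that matched no GENCODE gene overlapped no exon and did not lie wholly within a protein-coding gene. Of these, 35 rose (12.2%) and 12 fell (4.20%, median 0.10). All such features with a value above 0 took 0.0456%, 0.0492% and 0.0485% in DMSO and 0.0543%, 0.0534% and 0.0540% with indisulam, also without overlap. In a fit of features with a mean of at least 50, 28 of 106 of them rose (26.4%) and 9 fell, and 99 of 271 intronic features rose (36.5%) and 10 fell.

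For 136 of the 143 rising intronic features the host gene was tested too. The host rose in 24 (17.6%), fell in 28 (20.6%) and was not called in 84, and the median host log2 fold change was 0.01. Among the hosts of all 663 tested intronic features with a tested host the shares were 16.3% and 16.6%; the difference was not tested. The host is taken here as the feature with the highest mean whose span holds the intronic feature, on either strand. GSHG0000129 lies in TARDBP, the gene of the splicing repressor TDP-43 (chromosome 1, 11021746 to 11022091). Its values were 18.4, 27.2 and 24.5 in DMSO and 434, 310.2 and 335 with indisulam (log2 fold change 3.89 ± 0.19, limma adjusted p = 6.59e-08), while TARDBP was at 0.08. Each indisulam value there was more than 10 times each DMSO value. GSHG0032583, within the lipid flippase gene ATP10D (chromosome 4, 47550718 to 47554633), gave 33.5, 37.1 and 59.1 in DMSO and 546, 363 and 491 with indisulam (3.42 ± 0.29) and its host −0.07. In SLC38A1, which encodes a glutamine transporter, GSHG0010071 (chromosome 12, 46191740 to 46194602) gave 209, 259.9 and 270.0 in DMSO and 1100, 765 and 1126 with indisulam (2.00 ± 0.22), and the host stood at −0.20. Such a feature was also found in AMOTL1 (2.28; host 0.09). Others lay in genes that fell, such as CUL1, the scaffold of SCF ubiquitin ligases (1.11; host −0.27), and TPM1, a tropomyosin (0.99; host −0.37). In KMT5B, a histone H4 lysine methyltransferase, both the intronic feature (1.96) and the gene (0.63) rose. Of the 12 that fell, 8 had a tested host, which rose in 5 and fell in 0; one lies in ARIH2 (−1.76; host 0.26). These examples were chosen after their values were seen. The strand of these reads is unknown.

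**Figure D3:**
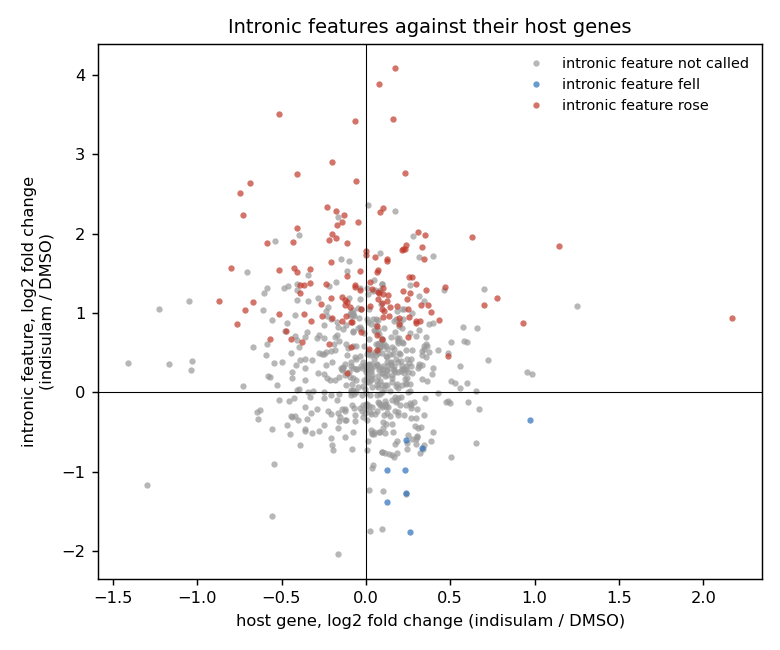
Each point is a tested intronic feature with a tested host gene, with the host's log2 fold change on the horizontal axis and the feature's on the vertical axis. The features that rose (red) spread on both sides of a host change of 0, and the 8 that fell (blue) have hosts above 0.

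Small nucleolar RNAs, which guide chemical modification of ribosomal and spliceosomal RNA, are mostly cut out of introns of other genes. C/D box snoRNAs guide methylation of ribose and H/ACA snoRNAs guide formation of pseudouridine. Most have no poly(A) tail, so the values here are those of reads that remained in polyadenylated libraries, 0.00282 to 0.00356% of the total in DMSO and 0.00395 to 0.00436% with indisulam. Of 92 tested, 17 rose (18.5%, against 14.5% of all features), 10 of them at least 2-fold, and 0 fell in limma (2 had a lower level with a raw p below 0.05, and edgeR and DESeq2 called 0 lower). On the 46 with a DMSO mean of at least 10, 12 rose. The other 46 passed the filter on low values through the treated libraries: all had a mean of at least 10 with pladienolide B, and 13 had one with indisulam. Of 51 C/D snoRNAs 9 rose, and of 39 H/ACA snoRNAs 7 did. The number that rose was 11 without any 1 of the DMSO replicates or indisulam replicate 2, and 10 without indisulam replicate 3, where 2 fell.

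The sequences of 4 that rose are shown with their boxes: SNORD17 and SNORD67 lie in genes that fell, SNORD94 in one that was not called, and SNORA11F in no tested gene of its strand. In the C/D snoRNAs the capitals mark the C box near the 5′ end and the D box near the 3′ end, and in SNORA11F the ACA box (RNA written as DNA, from the GENCODE transcripts on hg38, in the strand of the transcript).
SNORD17: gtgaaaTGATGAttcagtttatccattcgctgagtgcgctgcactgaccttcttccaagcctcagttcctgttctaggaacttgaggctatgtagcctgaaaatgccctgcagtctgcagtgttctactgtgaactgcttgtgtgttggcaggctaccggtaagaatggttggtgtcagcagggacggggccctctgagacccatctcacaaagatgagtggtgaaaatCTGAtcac
SNORD67: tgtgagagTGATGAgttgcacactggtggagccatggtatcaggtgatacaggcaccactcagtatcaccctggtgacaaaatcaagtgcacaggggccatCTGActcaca
SNORD94: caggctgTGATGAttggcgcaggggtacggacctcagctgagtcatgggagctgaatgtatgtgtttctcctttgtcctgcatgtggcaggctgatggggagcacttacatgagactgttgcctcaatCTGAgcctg
SNORA11F: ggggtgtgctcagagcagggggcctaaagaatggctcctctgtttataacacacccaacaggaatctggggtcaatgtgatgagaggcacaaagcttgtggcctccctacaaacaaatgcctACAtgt

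SNORD17 (chromosome 20, 17962710 to 17962946) gave 108, 129.6 and 131 in DMSO and 293, 284 and 286 with indisulam (log2 fold change 1.22 ± 0.13, limma adjusted p = 2.56e-05), so each indisulam value was over 2 times each DMSO value. It lies in an intron of SNX5, a sorting nexin, which fell with a log2 fold change of −0.20. SNORD94 (chromosome 2, 86135870 to 86136006) gave 19.3, 14.9 and 19.4 in DMSO and 33.9, 34.5 and 55.4 with indisulam (1.14 ± 0.27), and its host PTCD3, a protein of the mitochondrial ribosome, was not called (−0.18). SNORD67 (chromosome 11, 46762389 to 46762499) gave 16.8, 23.9 and 37.7 in DMSO and 41.2, 45.6 and 64.8 with indisulam (0.97 ± 0.29), with its host CKAP5, a microtubule polymerase, lower (−0.25). SNORA11F (chromosome 10, 73126080 to 73126207) gave 58.6, 69.3 and 48.9 in DMSO and 86.1, 117 and 107 with indisulam (0.80 ± 0.21). In these 4 the indisulam values stood above the DMSO values in every library, at levels that were low apart from SNORD17. For SNORA71A (1.17) and SNORA71C (0.74), in contrast, the host SNHG17 rose too. SNORD14B (0.96) and SNORA6 (1.03) lie in the ribosomal protein genes RPS13 and RPSA, neither of which was called. Of the 17 snoRNAs that rose, 16 had a tested host gene on their strand, which rose in 4, fell in 3 and was not called in 9. The snoRNAs named here were all chosen after their values were seen.

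The snoRNA host genes, many of which encode no protein, were counted as a list of their own, of which 12 of 22 rose (54.5%) and 0 fell (median 0.33). Their values may include reads of unspliced RNA. In limma 0 had a lower level with a raw p below 0.05, and edgeR and DESeq2 called 0 lower. SNHG17 gave 1137, 1241 and 1484 in DMSO and 2370, 2396 and 2760 with indisulam (log2 fold change 0.97 ± 0.11, limma adjusted p = 3.7e-05). SNHG1 gave 2789, 3213 and 3443 in DMSO and 5223, 5977 and 6988 with indisulam (0.94 ± 0.13) and SNHG16 1615, 1705 and 1614 in DMSO and 2867, 3001 and 2986 with indisulam (0.84 ± 0.07), each without overlap between the groups. Many of these RNAs are known targets of nonsense-mediated decay, which degrades transcripts with an early stop codon. Of the factors of that pathway, 2 of 16 rose (12.5%) and 2 fell (12.5%; median −0.06). SMG8 (0.31) and UPF3B (0.45) rose, while NBAS fell (−0.61). Of these factors the number that rose was 1 on leaving out DMSO replicate 1, indisulam replicate 2 or indisulam replicate 3 and 0 on leaving out DMSO replicate 2 or indisulam replicate 1, and the number that fell was 1 on leaving out DMSO replicate 2, DMSO replicate 3, indisulam replicate 1 or indisulam replicate 2. With the same total per library 0 of them rose. At the shares of all features, a list of this size would hold as many within 2 genes in each direction.

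Zinc finger genes of the ZNF family, whose proteins bind DNA and often repress transposable elements through KRAB domains, rose more often than they fell. Of 430 tested, 115 rose (26.7%) and 22 fell (median 0.20). Since most have few exons, those with 1 to 12 exons were set beside other protein-coding genes with as many: 111 of 410 rose (27.1%) and 22 fell, against 1228 of 7666 (16.0%) that rose and 761 that fell. On chromosome 19, where many lie in clusters, 68 of 213 rose and 8 fell. The other 724 protein-coding genes of that chromosome went the other way, with 55 rising and 113 falling. With the same total per library 82 of the 430 rose and 24 fell. The number of ZNF genes that rose was 74 on leaving out DMSO replicate 2, among them 70 with 1 to 12 exons, and that on chromosome 19 was 44 on leaving out DMSO replicate 2 and 43 on leaving out indisulam replicate 1. The number that fell was 14, 12, 13, 12 and 15 without DMSO replicates 1, 2 and 3 and indisulam replicates 2 and 3 in turn, and 3 to 5 on chromosome 19 without any 1 library.

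ZNF83 (chromosome 19, 52612367 to 52690496) gave 1975, 1899 and 1838 in DMSO and 4007, 3611 and 3597 with indisulam (log2 fold change 0.97 ± 0.12, limma adjusted p = 7.94e-05), nearly doubling. ZNF841, on the same chromosome, gave 1487, 1411 and 1513 in DMSO and 2623, 2307 and 2582 with indisulam (0.77 ± 0.09), and ZNF512, on chromosome 2, 1237, 1202 and 1309 in DMSO and 2416, 2317 and 2458 with indisulam (0.94 ± 0.10). The largest rise was that of ZNF449 on the X chromosome, from 98.0, 168 and 102 in DMSO to 339, 290 and 317 (1.40 ± 0.20). Some members fell clearly: ZNF251 on chromosome 8 gave 864, 1002 and 920.1 in DMSO and 347, 365 and 333 with indisulam (−1.41 ± 0.10), and ZNF655 on chromosome 7 6082, 6719 and 6799 in DMSO and 3548, 3635 and 3903 with indisulam (−0.82 ± 0.08). In each of these 6 genes the groups did not overlap. ZNF genes of a cluster are alike in sequence, and how reads that fit several of them were counted is not given in the sources used here. ZNF83, ZNF841, ZNF512 and ZNF655 were chosen after their values were seen.

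**Figure D4:**
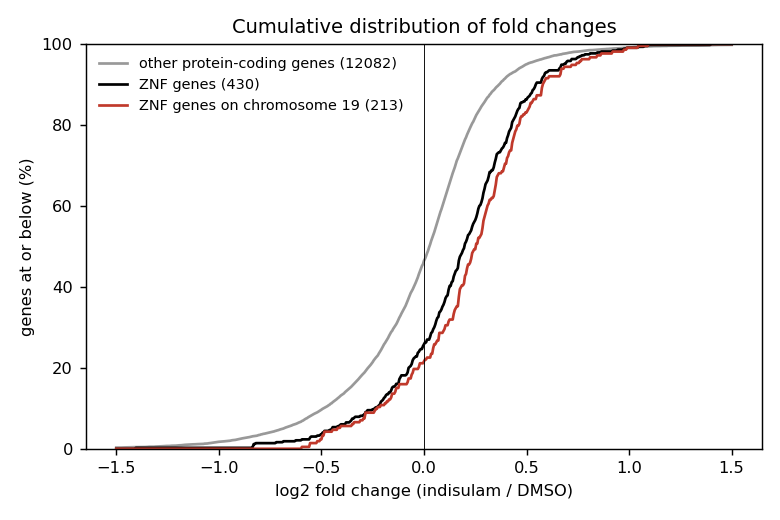
Cumulative share of genes (vertical axis, %) at or below a given log2 fold change (horizontal axis) for the ZNF genes, those of them on chromosome 19, and the other protein-coding genes. The curve of the 430 ZNF genes (median 0.20) lies to the right of the grey curve, and that of the 213 on chromosome 19 (median 0.25) further right.

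Among splicing genes, the arginine- and serine-rich genes of nuclear speckles rose far more often than they fell. Many of these keep introns in their nuclear transcripts, as a known form of control. Of this list, 12 of 29 rose (41.4%) and 1 fell (3.45%; median 0.22). RSRP1, an arginine- and serine-rich protein gene (chromosome 1, 25242249 to 25267925), gave 591, 727 and 638 in DMSO and 3123, 2703 and 2980 with indisulam (log2 fold change 2.17 ± 0.09, limma adjusted p = 2.85e-08), a rise of more than 3-fold in each library. CLK4, a kinase of SR proteins, gave 789, 730.3 and 724 in DMSO and 1523, 1520 and 1393 with indisulam (0.98 ± 0.15). NKTR, a cyclophilin with a long arginine- and serine-rich tail, gave 651, 758 and 765 in DMSO and 1642, 1371 and 1470 with indisulam (1.04 ± 0.18), but overlaps the higher feature SEC22C. The one member that fell, RSRC2, gave 4928, 5085 and 5309 in DMSO and 3293, 3457 and 3790 with indisulam (−0.54 ± 0.09). The number that fell was 2 on leaving out DMSO replicate 1.

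Of the U1 snRNP and the LUC7 proteins that stabilise it on the start of the intron, 5 of 12 rose (41.7%) and 2 fell (16.7%; median 0.15). TIA1, which helps U1 to bind weak sites, gave 747, 908 and 854 in DMSO and 1572, 1659 and 1719 with indisulam (log2 fold change 0.98 ± 0.10, limma adjusted p = 1.68e-05). PRPF39 gave 533, 501 and 578 in DMSO and 1152, 1049 and 1204 with indisulam (1.08 ± 0.11) and overlaps the higher feature FKBP3, whereas PRPF40B, another protein linked to U1, fell (−0.95; it overlaps FMNL3). NCBP2, the small subunit of the nuclear cap-binding complex, rose (0.43) and NCBP1, its large subunit, fell, from 5369, 5292 and 5884 in DMSO to 3317, 3595 and 3636 (−0.65 ± 0.07). Of the Sm and LSm proteins, which form the rings of the snRNPs, 7 of 17 rose (41.2%) and 0 fell (median 0.16), and 0 had a lower level with a raw p below 0.05 in limma or a lower call from edgeR or DESeq2. SNRPB, the core protein SmB, gave 20024, 20117 and 19794 in DMSO and 24844, 24520 and 25375 with indisulam (0.32 ± 0.06), and SNRPG (0.23) and SNRPE (0.23; it overlaps ZC3H11A) also rose. In the U5 and tri-snRNP and the PRP19 complex, which act at the catalytic step, 9 of 28 rose (32.1%) and 4 fell (14.3%; median 0.10). CDC5L gave 9909, 9452 and 9880 in DMSO and 14999, 14780 and 14924 with indisulam (0.61 ± 0.06) and PRPF6 12629, 12408 and 12412 in DMSO and 17488, 17409 and 17570 with indisulam (0.49 ± 0.05), with no overlap in either. SNRNP40 (−0.57), EFTUD2 (−0.38) and SART1 (−0.32) of the same complexes fell. Of 11 genes of the minor spliceosome, ZCRB1 (0.28) alone rose and 0 fell (also at a raw p below 0.05, in edgeR and in DESeq2), which is within 2 genes of what the shares of all features would give. For the U1 list the number that rose was 3 on leaving out indisulam replicate 3. For the Sm and LSm list it was 4 on leaving out DMSO replicate 2, 3 on leaving out indisulam replicate 2 or indisulam replicate 3 and 2 on leaving out DMSO replicate 3, 3 with TMM scaling and 2 in edgeR. The call of ZCRB1 was lost with TMM scaling and on leaving out DMSO replicate 2, DMSO replicate 3 or indisulam replicate 3.

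The RBM family to which RBM39 belongs moved in both directions: 12 of 36 rose (33.3%) and 7 fell (19.4%; median 0.17). RBM26, which acts in nuclear RNA turnover, gave 1812, 1811 and 1896 in DMSO and 3221, 2805 and 2971 with indisulam (log2 fold change 0.70 ± 0.07, limma adjusted p = 2.14e-05), and RBM25, a U1-associated splicing regulator, rose (0.48). RBM10, a repressor of exon inclusion, gave 8167, 8269 and 8835 in DMSO and 4200, 4430 and 4422 with indisulam (−0.95 ± 0.07) and overlaps the higher feature NDUFB11. RBM45 (−0.66) and RBMX, an hnRNP, fell, the latter from 5862, 6018 and 6200 in DMSO to 3979, 4458 and 4233 (−0.51 ± 0.06). The number that rose was 7 on leaving out DMSO replicate 1 and 6 on leaving out DMSO replicate 2 or indisulam replicate 3, and 7 with TMM scaling.

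Later steps of RNA processing moved in both directions. Among the proteins of paraspeckles, nuclear bodies that hold RNA back, and related factors, 1 of 12 rose (8.33%) and 6 fell (50%; median −0.27). SFPQ, a core protein of these bodies, gave 16651, 17606 and 18310 in DMSO and 10002, 11422 and 11721 with indisulam (log2 fold change −0.67 ± 0.08, limma adjusted p = 6.72e-05). EWSR1 gave 17806, 19712 and 19393 in DMSO and 12433, 13455 and 13063 with indisulam (−0.55 ± 0.06) and DAZAP1 also fell (−0.62). The one that rose, ADAR, which edits adenosine in double-stranded RNA, changed little (0.21; it overlaps SLC39A1), and without indisulam replicate 1 the number that rose was 2. Of the DEAD- and DEAH-box helicases, 11 of 38 rose (28.9%) and 8 fell (21.1%; median 0.06). DHX15, which takes spent spliceosomes apart, rose (0.46), as did DDX6, a repressor of translation (0.50), and DDX31 (0.56; it overlaps GTF3C4), whereas DHX33 (−0.77), DHX36 (−0.58) and DHX35 (−0.51) fell. In the exon junction and TREX export complexes, 5 of 25 rose (20%) and 5 fell (20%; median 0.06): SARNP (0.44) and ENY2 (0.30) rose, and THOC1 (−0.81; it overlaps USP14) and THOC2 (−0.57) of the THO complex fell. For cleavage and polyadenylation, 4 of 21 rose (19%) and 5 fell (23.8%; median 0.02). PAPOLA, the main nuclear poly(A) polymerase, gave 15357, 14159 and 15408 in DMSO and 9234, 9742 and 10090 with indisulam (−0.63 ± 0.07), and its paralog PAPOLG was at 0.40. WDR33, which reads the polyadenylation signal, rose (0.48) and CSTF2 fell (−0.57). Of the RNA exosome list, 5 of 23 rose (21.7%) and 2 fell (8.70%; median −0.03), with EXOSC7 (0.60) and EXOSC9 (0.32; it overlaps CCNA2) up and EXOSC8, a ring subunit, at 3137, 3380 and 3188 in DMSO and 1662, 1927 and 1783 with indisulam (−0.85 ± 0.07). For the m6A machinery, 4 of 19 rose (21.1%) and 2 fell (10.5%; median 0.06): the methyltransferase METTL16 (0.51) and the nuclear reader YTHDC1 (0.60) rose, and MAT2A, which makes the methyl donor, fell (−0.33).

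The counts of the export, exosome and m6A lists were within 2 genes of those that the shares of all features would give. Left-out libraries moved several of these counts. The number of helicases that fell was 5 on leaving out DMSO replicate 3 or indisulam replicate 1. For cleavage and polyadenylation the number that rose was 2 on leaving out DMSO replicate 1, DMSO replicate 2, DMSO replicate 3, indisulam replicate 2 or indisulam replicate 3, and also with TMM scaling. For the exosome it was 3 on leaving out DMSO replicate 2, indisulam replicate 1 or indisulam replicate 3, and also with the same total per library. Among the m6A genes the number that fell was 1 on leaving out DMSO replicate 2, DMSO replicate 3 or indisulam replicate 1.

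Genes that hold and separate chromosomes fell far more often than they rose. The lists of this and the following paragraphs were not matched to other genes by exon number or level. Among all protein-coding genes with 13 to 20 exons 11.4% rose and 20.9% fell, and with over 20 exons 8.15% rose and 27.1% fell. Of the condensin and cohesin genes, 0 of 28 rose and 10 fell (35.7%; median −0.01). In limma 2 had a higher level with a raw p below 0.05, and DESeq2 called 1 higher and edgeR 0. NCAPG, a condensin subunit (chromosome 4, 17810902 to 17844865), gave 12462, 12254 and 12057 in DMSO and 5384, 5761 and 5381 with indisulam (log2 fold change −1.15 ± 0.10, limma adjusted p = 5.71e-06), so that every indisulam library stood far below every DMSO library. NCAPD3, of the second condensin, gave 3794, 4207 and 4297 in DMSO and 2141, 2805 and 2759 with indisulam (−0.68 ± 0.09), and ESPL1, the protease that cuts cohesin, fell (−0.62). In the centromere and kinetochore list, 4 of 34 rose (11.8%) and 14 fell (41.2%; median −0.17). CENPI gave 2098, 2001 and 2165 in DMSO and 1028, 1047 and 860.0 with indisulam (log2 fold change −1.10 ± 0.10, limma adjusted p = 1.05e-05) and CENPU 3964, 3886 and 4137 in DMSO and 1848, 2259 and 1992 with indisulam (−0.98 ± 0.09), and CENPK, which binds beside them in the inner kinetochore, was at −0.76. The groups did not overlap in any of these 3. CENPC (0.40) and CENPW (0.28) rose, and so did CENPJ (0.43), whose protein acts at centrioles despite its symbol. The number that rose was 1 on leaving out DMSO replicate 1, DMSO replicate 2 or indisulam replicate 2 and 0 on leaving out DMSO replicate 3 or indisulam replicate 1, and 0 with the same total per library, while 11 to 12 fell without any 1 library.

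Of the anaphase-promoting complex, the ubiquitin ligase that ends mitosis, 1 of 18 rose (5.56%) and 6 fell (33.3%; median −0.02). ANAPC7 gave 2314, 2242 and 2472 in DMSO and 1230, 1492 and 1329 with indisulam (log2 fold change −0.80 ± 0.08, limma adjusted p = 1.76e-05), and ANAPC4 (−0.58) and CDC27 (−0.48) fell. Its ubiquitin-conjugating enzyme UBE2C rose slightly (0.19). That call was lost with TMM scaling and when any 1 of DMSO replicates 1 and 3 and indisulam replicates 1 and 2 was left out. Of the centriole and centrosome genes, 5 of 41 rose (12.2%) and 9 fell (22%; median −0.04), with CNTROB at 0.38 (it overlaps TRAPPC1) and PCNT, a scaffold of the centrosome with 47 exons, at −0.45. Among kinesins, 3 of 30 rose (10%) and 5 fell (16.7%; median −0.03). KIF2A, which shortens microtubules, gave 3563, 3404 and 3599 in DMSO and 1656, 1917 and 1634 with indisulam (−1.02 ± 0.09), and KIF20A, needed for cytokinesis, 16169, 13816 and 13172 in DMSO and 9281, 8543 and 7971 with indisulam (−0.74 ± 0.09). KIF23, also needed in cytokinesis, went the other way, from 13037, 12797 and 13342 in DMSO to 17100, 16592 and 17111 (0.37 ± 0.08). The counts of the kinesins were within 2 genes of those at the shares of all features. For the centrosome genes the number that rose was 3 on leaving out DMSO replicate 1, indisulam replicate 1, indisulam replicate 2 or indisulam replicate 3 and 2 on leaving out DMSO replicate 2, and it was 3 with TMM scaling. The number that fell was 5 on leaving out DMSO replicate 1, DMSO replicate 3 or indisulam replicate 2 and 4 on leaving out DMSO replicate 2 or indisulam replicate 3. For the kinesins the number that rose was 1 on leaving out DMSO replicate 1, and the number that fell was 3 on leaving out DMSO replicate 3, indisulam replicate 1 or indisulam replicate 2.

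DNA polymerases, topoisomerases and cell-cycle regulators fell in part. Of the replicative and repair polymerases, 0 of 25 rose and 6 fell (24%; median 0.00). In limma 4 had a higher level with a raw p below 0.05, and edgeR and DESeq2 called 0 higher. POLA1, the catalytic subunit of the polymerase that primes synthesis, gave 6072, 5965 and 6319 in DMSO and 3308, 3702 and 3375 with indisulam (log2 fold change −0.82 ± 0.06, limma adjusted p = 1.87e-06). POLE2, of the leading-strand polymerase, fell from 1903, 2127 and 2139 to 805, 929 and 1008 (−1.17 ± 0.10) and overlaps the higher feature RPS29. Among topoisomerases and mismatch repair genes, 1 of 22 rose (4.55%) and 5 fell (22.7%; median −0.01). TOP2A, which untangles sister chromosomes, gave 34861, 31651 and 33119 in DMSO and 16004, 15015 and 14214 with indisulam (−1.14 ± 0.10), again with all indisulam libraries far below DMSO. MLH3, a mismatch repair protein, rose, from 391, 310 and 308 to 734, 609 and 753 (1.06 ± 0.18), but overlaps the higher feature EIF2B2. Of the cyclins, cyclin-dependent kinases and E2F and RB genes, 1 of 35 rose (2.86%) and 8 fell (22.9%; median −0.04). The related repressors RBL1 (4456, 4479 and 4410 in DMSO and 2545, 2806 and 2726 with indisulam; −0.73 ± 0.06) and RB1 (−0.57) fell, and so did MYBL2, which drives genes of mitosis (−0.53). CCNB2, a mitotic cyclin, rose (0.27). In that list the number that rose was 0 on leaving out indisulam replicate 1, and the number that fell was 5 on leaving out DMSO replicate 2 or indisulam replicate 1; edgeR called 12 lower. Of 17 end joining genes PRKDC alone fell (−0.22), a call lost without any 1 library except DMSO replicate 1, and 0 rose in limma (2 had a higher level with a raw p below 0.05, and edgeR and DESeq2 called 0 higher). The share of this list that fell was 5.88%, against 12.4% of all features, and 14.5% of all features rose.

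The nuclear pore was another large assembly in which falls prevailed: 4 of 28 rose (14.3%) and 12 fell (42.9%, median −0.08). This list, too, was not matched to other genes by exon number or level. NUP58, of the central channel, gave 4280, 4064 and 4347 in DMSO and 2197, 2273 and 2252 with indisulam (log2 fold change −0.92 ± 0.10, limma adjusted p = 2.19e-05), its channel partner NUP54 2889, 2848 and 2913 in DMSO and 1673, 1848 and 1933 with indisulam (−0.67 ± 0.08), and NUP210 was at −0.59. RAE1 (0.41), NUP37 (0.34) and NUP107 (0.33) rose. The number that rose was 2 on leaving out indisulam replicate 3. Of the aminoacyl-tRNA synthetases, which load tRNAs with amino acids, 7 of 32 rose (21.9%) and 10 fell (31.2%; median −0.08). Of the mitochondrial enzymes, TARS2 gave 1948, 1933 and 1875 in DMSO and 1064, 959 and 1061 with indisulam (log2 fold change −0.90 ± 0.07, limma adjusted p = 4.02e-06), while EARS2 (0.68), YARS2 (0.68; it overlaps DNM1L) and HARS2 (0.48; it overlaps HARS1) rose. AARS1, a cytosolic enzyme, fell (−0.38). The synthetases that rose numbered 4 on leaving out DMSO replicate 1, DMSO replicate 2 or indisulam replicate 3, and also 4 with the same total per library, and 6 fell without indisulam replicate 3.

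Proteasome, respiration and autophagy genes changed mostly by small amounts. Of the proteasome genes, 6 of 31 rose (19.4%) and 3 fell (9.68%; median 0.06), and PSMC5, an ATPase of its cap, fell most (−0.41). Of the nuclear genes of oxidative phosphorylation, 10 of 46 rose (21.7%) and 5 fell (10.9%; median 0.09). NDUFS4, of complex I, rose (0.42), and UQCRC1 (−0.34) and CYC1 (−0.34) of complex III and SDHA of complex II (−0.31) fell. For autophagy, 6 of 32 rose (18.8%) and 5 fell (15.6%; median 0.10): GABARAPL1 gave 988, 1176 and 957 in DMSO and 1670, 1659 and 1747 with indisulam (log2 fold change 0.71 ± 0.09, limma adjusted p = 0.000134) and ATG12 rose (0.43), whereas ATG7, the enzyme that activates ATG12, fell (−0.64). The proteasome and autophagy counts were within 2 genes of those at the shares of all features. The number of proteasome genes that rose was 3 on leaving out DMSO replicate 1, DMSO replicate 3, indisulam replicate 1 or indisulam replicate 2 and 1 on leaving out DMSO replicate 2 or indisulam replicate 3, and 2 with TMM scaling. The number that fell was 1 on leaving out DMSO replicate 2, DMSO replicate 3 or indisulam replicate 1. For oxidative phosphorylation the number that rose was 6 on leaving out indisulam replicate 3, 5 on leaving out indisulam replicate 1 or indisulam replicate 2 and 3 on leaving out DMSO replicate 2 or DMSO replicate 3, and 4 with TMM scaling.

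Transcription and chromatin complexes had members in both directions. Of the transcription kinases and their cyclins, 5 of 26 rose (19.2%) and 5 fell (19.2%; median 0.08). CCNH, the cyclin of TFIIH, gave 2141, 2060 and 2227 in DMSO and 815, 808 and 876 with indisulam (log2 fold change −1.36 ± 0.08, limma adjusted p = 4.5e-07), the largest fall in any list other than those of noncoding RNAs and ZNF genes, and shares coordinates with the higher feature RASA1. CDK9 (−0.39) and CCNK (−0.43; it overlaps CCDC85C) fell, and CDK12, the partner of the latter, rose (0.27). Of the Mediator list, 6 of 27 rose (22.2%) and 7 fell (25.9%; median 0.06), with MED28 (0.49), MED10 (0.44) and MED21 (0.39) up and MED12 (−0.59), MED29 (−0.50) and MED15 (−0.45) down. In the Integrator complex, which ends transcription of snRNAs, 3 of 15 rose (20%) and 3 fell (20%; median 0.01). INTS3 gave 1817, 1847 and 1713 in DMSO and 958, 1010 and 914 with indisulam (−0.90 ± 0.08), and INTS12 rose (0.53). Of the histone methyltransferases and demethylases, 6 of 39 rose (15.4%) and 4 fell (10.3%; median 0.05). KDM3A, which removes methyl groups from histone H3 lysine 9 (chromosome 2, 86441319 to 86492716), gave 4780, 5003 and 4378 in DMSO and 8740, 9552 and 8771 with indisulam (log2 fold change 0.94 ± 0.09, limma adjusted p = 1.2e-05), nearly doubling, and KMT5B rose (0.63). Of the Polycomb genes, 3 of 28 rose (10.7%) and 4 fell (14.3%; median −0.04), with PHC3 at 1321, 1360 and 1583 in DMSO and 2610, 2005 and 2331 with indisulam (0.70 ± 0.11) and EED (−0.47) and PHF19 (−0.54) lower. In SWI/SNF, 3 of 25 rose (12%) and 5 fell (20%; median 0.04): BRD9 rose (0.54) and SMARCC2 fell (−0.51).

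For the transcription kinases and cyclins, Integrator, the histone methyltransferases and demethylases, Polycomb and SWI/SNF, the counts in both directions were within 2 genes of those at the shares of all features. Some of these counts changed when 1 library was left out, which lowered the number of calls over all features as well. The kinases and cyclins that rose numbered 3 on leaving out indisulam replicate 1 or indisulam replicate 2 and 2 on leaving out DMSO replicate 1, DMSO replicate 2 or indisulam replicate 3, and 3 with TMM scaling. For Integrator the number that rose was 1 on leaving out DMSO replicate 2, and for Polycomb the number that fell was 2 on leaving out DMSO replicate 2, indisulam replicate 1 or indisulam replicate 3.

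Signalling lists for TGF-beta and for Wnt, Notch and Hippo held more rises than falls, as did all features (14.5% rose and 12.4% fell). With the same total per library 6 of the TGF-beta, BMP and SMAD genes rose and 3 fell. Of the Wnt, Notch and Hippo genes 7 rose and 3 fell with that scaling. Of the TGF-beta, BMP and SMAD genes, 7 of 30 rose (23.3%) and 3 fell (10%; median 0.17). SMAD4, the common mediator of these signals, gave 1638, 1676 and 1702 in DMSO and 2626, 2661 and 2971 with indisulam (log2 fold change 0.72 ± 0.08, limma adjusted p = 2.59e-05). TGFB2, a ligand, gave 2417, 2199 and 2140 in DMSO and 3701, 3208 and 3674 with indisulam (0.65 ± 0.09), and INHBA, the activin ligand gene, 453, 444 and 418 in DMSO and 714, 666 and 647 with indisulam (0.62 ± 0.14), each above DMSO in every library. The ligand gene TGFB1 (−0.47), the receptor gene BMPR2 (−0.39) and the target gene ID1 (−0.28) fell. In the Wnt, Notch and Hippo list, 10 of 36 rose (27.8%) and 3 fell (8.33%; median 0.12). CCN2, a target of the Hippo effector YAP, gave 5656, 6176 and 6915 in DMSO and 9376, 9477 and 11460 with indisulam (0.69 ± 0.09), AMOTL2, which holds YAP outside the nucleus, 6521, 6381 and 6823 in DMSO and 9774, 9390 and 9649 with indisulam (0.55 ± 0.06), and the Hippo kinase gene STK3 rose (0.49). FZD6, a Wnt receptor, fell (−0.70). Among receptor tyrosine kinases and the RAS and RAF genes, 4 of 29 rose (13.8%) and 2 fell (6.90%; median −0.00): AXL, a marker of this line, gave 100718, 101477 and 99709 in DMSO and 71048, 73950 and 71599 with indisulam (−0.48 ± 0.05), EPHB2 fell (−0.69), and IGF1R (0.34) and EPHA2 (0.24) rose. The counts of that list were within 2 genes of those at the shares of all features. The number that rose in it was 2 on leaving out indisulam replicate 3, and 5 fell with TMM scaling. Of 22 circadian clock genes 0 rose in limma (4 had a higher level with a raw p below 0.05, and DESeq2 called 1 higher and edgeR 0), and PER3 (−0.58) and ARNTL2 (−0.42) fell. Those 2 are 9.09% of the list, near the 12.4% of all features that fell, so they are no result about the list. Over all features 14.5% rose.

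Long noncoding RNAs linked to cancer held some of the largest falls: 3 of 23 rose (13%) and 7 fell (30.4%; median −0.23). MANCR, an RNA named for its association with mitosis (chromosome 10, 4579252 to 4678091), gave 2357, 2836 and 2371 in DMSO and 425, 504 and 468 with indisulam (log2 fold change −2.43 ± 0.11, limma adjusted p = 6.28e-08). Every indisulam value lay far below every DMSO value. FTX, a regulator of X inactivation, fell (−1.44; it overlaps the higher feature JPX), and DLEU2 fell from 908, 853 and 885 to 330, 409 and 410 (−1.21 ± 0.11; it overlaps DLEU1). LINC-PINT, a target of p53, gave 394, 411 and 590.0 in DMSO and 993, 856 and 1088 with indisulam (1.09 ± 0.17), and TUG1 rose by less (0.30).

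**Figure D5:**
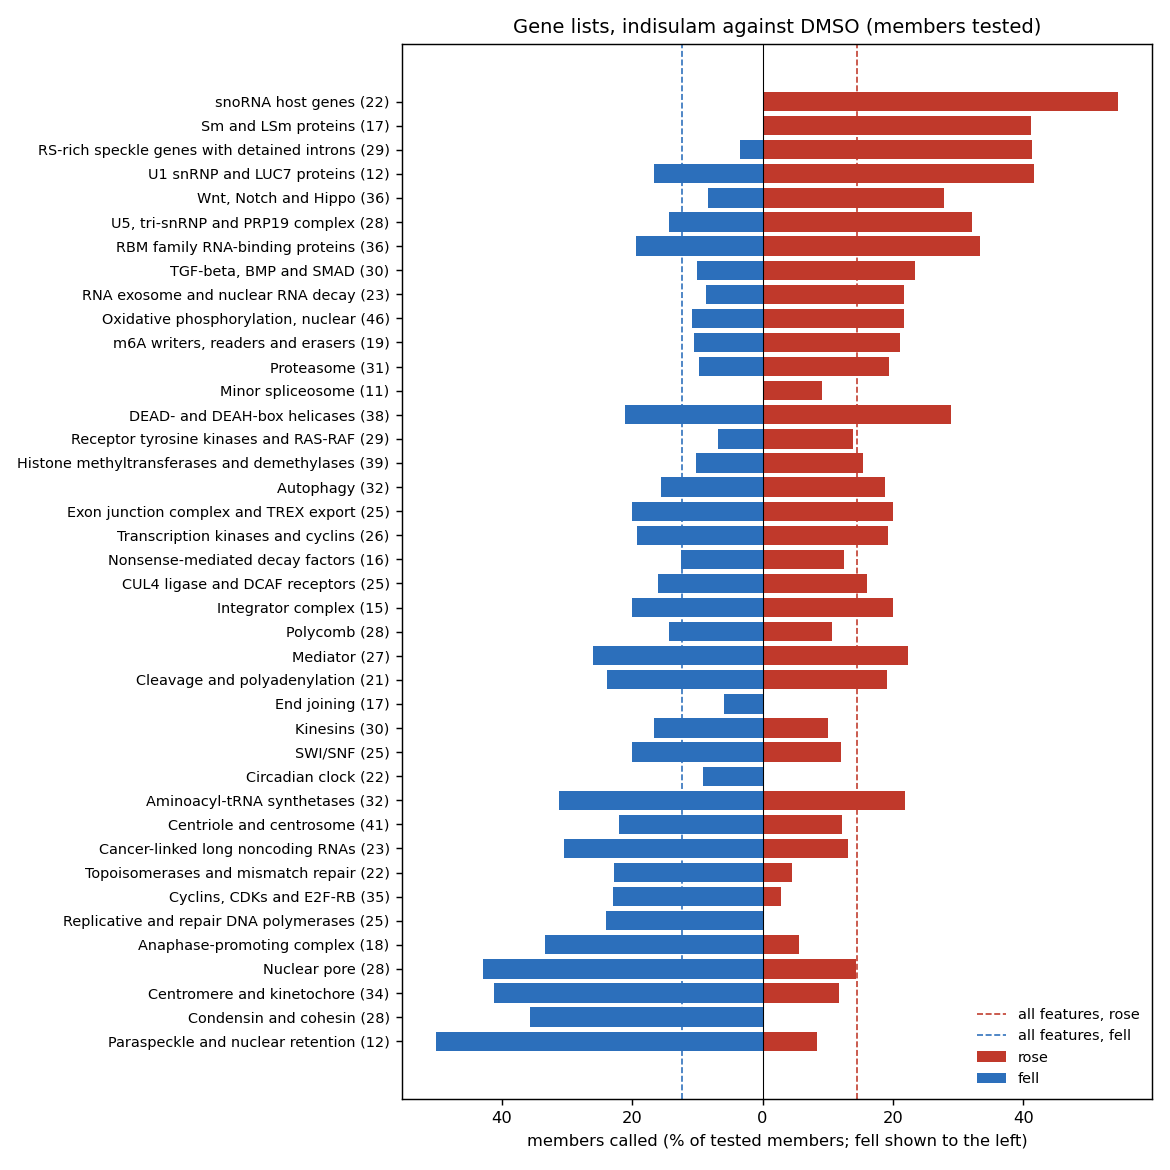
Share of the tested members of each gene list that rose (red, right) or fell (blue, left) with indisulam, with the number tested in brackets; dashed lines mark the shares over all features, 14.5% and 12.4%. snoRNA host genes (54.5% rose) stand at the top, and the paraspeckle list at the bottom.

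The largest changes are those among genes with a symbol, a mean of at least 100 over the 6 libraries and no overlap with a higher feature. GUCA1B, a calcium sensor of photoreceptors, gave 36.0, 41.3 and 29.5 in DMSO and 354, 302 and 318 with indisulam (log2 fold change 3.16 ± 0.27, limma adjusted p = 6.26e-06). MYLK2, a muscle myosin light chain kinase, gave 37.7, 33.0 and 26.5 in DMSO and 236, 164 and 255 with indisulam (2.71 ± 0.33), and SEC31B, a coat protein of vesicles that leave the endoplasmic reticulum, 176, 252 and 233 in DMSO and 639, 798 and 724 with indisulam (1.72 ± 0.23). The first 2 of these were low in DMSO, and in all 3 each indisulam value was more than 2 times the highest DMSO value. DCAF4L1, a relative of DCAF4 with 1 exon (2.44), GTF2IP12, a pseudogene (1.66), ZNNT1 (1.82), ATP6V1FNB (1.48), MGC12916 (1.42) and LOC728743 (1.34) complete the 12 largest rises with RSRP1, ZNF449 and RBM39.

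The largest fall was that of LOC399975, with 700.4, 791 and 981 in DMSO and 114, 115 and 189 with indisulam (log2 fold change −2.58 ± 0.19, limma adjusted p = 2.09e-06). MYH3, an embryonic myosin heavy chain with 41 exons, gave 228, 337 and 305 in DMSO and 64.1, 86.2 and 64.8 with indisulam (−1.99 ± 0.26), and CYP4V2, a fatty acid hydroxylase, 557, 695 and 652 in DMSO and 167, 204 and 161 with indisulam (−1.84 ± 0.13). In both, the groups stood far apart. R3HDM2, which encodes a protein with an R3H domain, gave 1637, 1844 and 1418 in DMSO and 627, 641 and 498 with indisulam (−1.47 ± 0.14). EFR3B, which anchors a lipid kinase to the plasma membrane (−1.83), PDE9A, a cyclic GMP phosphodiesterase (−1.42), MORN1 (−1.35), PSMG3-AS1 (−1.98) and PRKXP1 (−1.69) were others, beside MANCR and ZNF251. RASA4DP completes the 12, with values of 119, 169 and 174 in DMSO and 35.7, 60.8 and 69.0 with indisulam. PRKXP1, RASA4DP and GTF2IP12 are copies of other genes, and their reads may belong to those. Pladienolide B, measured against the same DMSO libraries, left PSMG3-AS1 at −0.06 and CYP4V2 at 0.31, and put MYH3 at −2.85.

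Among the most abundant genes the changes were small. FAT1, a giant cadherin, gave 56826, 61166 and 58767 in DMSO and 78574, 71761 and 69161 with indisulam (log2 fold change 0.31 ± 0.06, limma adjusted p = 0.00121), and HSP90B1, a chaperone of the endoplasmic reticulum, 64637, 61913 and 59247 in DMSO and 77993, 73934 and 70912 with indisulam (0.26 ± 0.07). The ferritin genes FTL (0.18) and FTH1 (0.22), the AP-1 subunit gene FOSL1 (0.19) and PTTG1IP (0.23) rose too, and each of these 4 calls was lost under 6 or more of the 17 alternatives, TMM scaling among them. On the falling side, ITGA3, an integrin that binds laminin, gave 120830, 134348 and 119940 in DMSO and 89358, 101091 and 87106 with indisulam (−0.44 ± 0.09). TLN1, which ties integrins to actin, gave 82343, 79101 and 81095 in DMSO and 71175, 70889 and 67869 with indisulam (−0.21 ± 0.05), and the ribosomal protein gene RPL10A (−0.19), PSMD2 (−0.21) and the actin crosslinker FLNA (−0.16) fell. The call of FLNA was lost without any 1 library, that of PSMD2 without DMSO replicate 2 or 3 or indisulam replicate 1, and that of RPL10A without DMSO replicate 2 or indisulam replicate 3.

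Promoter motifs were counted in the RefSeq promoters, 250 bases before to 50 after the start, of 10878 tested genes, on both strands. Sites of the E2F type (TTTCCCGC, TTTGGCGC, TTTGCCGC or TTTCGCGC), found at genes of the cell cycle, were in 7.14% of promoters of genes that fell, 6.51% of those that rose and 4.65% of those not called. The CHR letters TTTGAA, known from genes of late cell cycle, were in 8.91%, 12.6% and 9.49%, and the AP-1 letters TGANTCA in 3.60%, 5.16% and 5.23%, in the same order. Over all 10878 promoters the shares were 5.27%, 9.85% and 4.99%. The E2F share was lowest among genes not called, the CHR share highest among genes that rose and the AP-1 share lowest among genes that fell. These differences were not tested, and a match is only a match of letters.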

How the data were processed

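The 9 libraries were made from polyadenylated RNA and sequenced by the authors. STAR 2.7.5a, SAMtools, Picard, FastQC and DESeq2 and the build hg38 are named in the submitters' processing notes; how reads were counted, and whether by strand, is not given in the sources used here. As deposited, the signal is 1 value per feature and library, read counts that the authors divided by DESeq2's size factors, per the labels and the file headers. Every value of the 6 libraries compared was a whole number of reads times 1 factor per library (tolerance 0.01), which gave 59312100 to 74627193 reads per library; 3 reads, the smallest level read as above 0, are worth 2.48 to 3.13.

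limma 3.58.1 (R 4.3.3) was fitted with trend to log2(value + 1) of the 9 libraries in 1 model, on features with a mean of at least 10, with Benjamini-Hochberg adjustment; this scale understates changes of low genes. Both groups hold 3 libraries. The alternatives were other pseudocounts, filters and scalings, the 6 libraries alone, a replicate block, each library left out, and edgeR 4.0.16 (quasi-likelihood) and DESeq2 1.42.0 on the recovered reads. The scripts were tested on simulated data.

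Exons, biotypes and snoRNA sequences come from GENCODE release 29 on hg38, matched by symbol and position (23060 of 25854 features with a symbol overlapped their GENCODE gene); promoters come from RefSeq. The members and the 43 gene lists were chosen with earlier results of these data known; of 1176 list entries 1119 matched a feature and 1090 were tested. Lists are described by counts and shares, to be read against the shares over all features, with no set test. Named genes were the 12 largest changes each way (mean of at least 100, groups apart, no higher overlapping feature), the 6 most abundant called each way, up to 3 called members of each list in each direction, and RBM39, RBM23 and DCAF15; intronic features, snoRNAs, CSF1R and 4 ZNF genes were named after their values were seen.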

Additional observations from a re-analysis of the deposited data

How the results depend on the processing

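Of 231 named genes, 181 kept their call or lack of one in all 17 alternatives; 0 changed direction while called. Without any 1 library, 1565 to 1752 features rose and 1489 to 1721 fell. With a mean of at least 50, 222 rose and 159 fell at least 2-fold. Of the intronic features, 88 to 120 rose without any 1 library, and 22 fell in a fit of the 6 libraries only, 21 in edgeR and 20 in DESeq2. The share of genes with 1 to 4 exons that rose was 12.5 to 14.8% without any 1 library. Replicate numbers are shared between the groups, but the deviations of same-numbered libraries correlated at only 0.0553, 0.0334 and 0.108, so they were not taken as pairs, although each library correlated best with its own number. With a replicate block 3548 features rose and 2739 fell, and 30.0% of genes with 1 to 4 exons rose. Of the ZNF genes 174 rose and 34 fell in the fit of 6 libraries only, where 103 rose and 14 fell on chromosome 19; 10 snoRNAs rose with no filter on low values or with a mean of at least 50. The share of genes with over 20 exons that fell stayed within 1.5 times its value in all alternatives. Of 1462 list counts under alternatives, 210 moved further. The cause of these differences was not tested. Of the 92 snoRNAs, 46 had a DMSO mean under 10, where counts give little precision. The alternatives for exon classes and for intronic features above a minimum in DMSO or pladienolide B were added after the data had been seen.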
